A study of Mus musculus with 18 samples.

Results

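Potassium channels are membrane proteins that let potassium ions leave or enter cells and so set resting potential and the shape of action potentials. The genes described here are the protein-coding genes on mouse chromosomes 1 to 19 whose symbols begin with Kcn, 90 genes of 20661 protein-coding autosomal genes in the RefSeq annotation of GRCm38.p6; 2 gene symbols were left out by the rule that defined the set. The rule uses the symbol alone, but the gene family was picked with results of these data known. A transcription start was taken from the RefSeq promoter table for 68 of them (16456 of all genes), so 68 genes have values at the start and all 90 over the gene body. The 22 genes with body values only include Kcna1, Kcnab3, Kcnb2, Kcne1, Kcng1, Kcng2, Kcnh3, Kcnj11, Kcnj14, Kcnk3, Kcnk6, Kcnn2, Kcnq3, Kcns2, Kcnt1, Kcnu1, Kcnv1 and Kcnv2.

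All libraries came from E14 cells, a mouse embryonic stem cell line, kept on gelatin in 2i/LIF medium, which holds such cells in an undifferentiated state with a MEK inhibitor (PD0325901), a GSK3 inhibitor (CHIR99021) and leukaemia inhibitory factor; the medium also carried isotope-labelled or unlabelled arginine and lysine. Chromatin immunoprecipitation sequencing gave 18 libraries in 9 groups of 2. Untreated cells, with no spike-in, gave 10 of them, a pair each for H3K36me2, H3K36me3 and the mono-, di- and trimethylated forms of H3K27. The other 8 were quantitative libraries for H3K27me3 and H3K36me2 from cells kept for 7 days in 10 µM EPZ-6438, which blocks the methyltransferase EZH2, or in the same volume of the solvent DMSO, with Drosophila S2 chromatin added at 0.05% of the total. E14 is a single line, so every result is for that line, and the labels do not say whether duplicates were separate cultures, so the p-values measure the spread between these libraries, which may be technical.

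Polycomb repressive complex PRC2, whose catalytic subunit is EZH2, places methyl groups on lysine 27 of histone H3, and its trimethylated form H3K27me3 lies over silent developmental genes in stem cells. H3K36me3 is laid down over transcribed gene bodies, and H3K36me2 lies more broadly over genes and intergenic chromatin and hinders PRC2 on the same histone tail. Most potassium channel genes act in neurons, muscle, heart, kidney or gland cells. Pore subunits of the Kv1 to Kv4, EAG and KCNQ families open on depolarisation. Silent modifier subunits join certain Kv pore subunits and form no channels alone. Inward rectifiers and tandem-pore channels hold the resting potential, calcium- or sodium-activated channels follow ion signals, and auxiliary subunits tune gating and trafficking.

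Levels are given as multiples of the library mean, that is, mean reads per 1 kb window over a gene divided by the mean over all windows of autosomes and chromosome X in that library. Window reads, in which a read that spans a window edge counts in each window, ranged from 22935044 to 67464843 in the untreated libraries, from 50538962 to 111758166 in the quantitative H3K36me2 libraries, were 21570141 and 27899913 for H3K27me3 after DMSO, and only 991909 and 1777232 for H3K27me3 after the inhibitor. The stem cell label was checked on fixed lists. Over their bodies 7 of 8 pluripotency genes had a value, with H3K36me3 at 4.74 to 8.15 times the library mean, and over whole spans all 8 ranged from 1.17 to 8.06. One of them, Esrrb, also had H3K27me3 at 6.91 at its start. The 6 genes of differentiated lineages with a start had H3K27me3 there at 8.70 to 17.4 times the library mean.

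Promoter sequences of 6 genes show how different the DNA at the 2 ends of the H3K27me3 range can be. They run from 250 bases before to 50 bases after the start, on the gene's strand, as RefSeq gives them for GRCm38.p6, with every CG in capitals. The first 3 belong to the 3 starts with the most H3K27me3, and the last 3 to the 3 with the least. Kcnc4 (minus strand, chr3:107458849-107459148) encodes a fast-inactivating Kv3 pore subunit and holds 17 CG. Kcna2 (plus strand, chr3:107101317-107101616) encodes an axonal Kv1 pore subunit and holds 31. Kcnj4 (minus strand, chr15:79505192-79505491) encodes a neuronal inward rectifier and holds 41. Kcnk5 (minus strand, chr14:20181733-20182032) encodes a tandem-pore channel of kidney epithelium and holds 26. Kcnrg (plus strand, chr14:61607207-61607506) encodes a soluble protein with a tetramerisation domain and holds 1. Kcnj13 (minus strand, chr1:87394680-87394979) encodes an inward rectifier of retinal pigment epithelium and other epithelia and holds 5.
Kcnc4: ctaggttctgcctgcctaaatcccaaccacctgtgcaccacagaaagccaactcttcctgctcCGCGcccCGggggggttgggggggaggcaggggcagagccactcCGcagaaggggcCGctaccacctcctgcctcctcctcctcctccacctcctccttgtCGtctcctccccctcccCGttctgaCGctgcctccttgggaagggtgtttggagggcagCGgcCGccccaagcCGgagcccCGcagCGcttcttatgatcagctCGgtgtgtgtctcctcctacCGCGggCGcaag
Kcna2: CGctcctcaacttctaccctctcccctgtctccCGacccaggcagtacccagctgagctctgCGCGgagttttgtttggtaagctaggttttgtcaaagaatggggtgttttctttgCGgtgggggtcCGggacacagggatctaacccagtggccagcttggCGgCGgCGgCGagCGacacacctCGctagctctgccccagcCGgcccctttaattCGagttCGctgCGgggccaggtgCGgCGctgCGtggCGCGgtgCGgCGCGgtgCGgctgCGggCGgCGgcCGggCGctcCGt
Kcnj4: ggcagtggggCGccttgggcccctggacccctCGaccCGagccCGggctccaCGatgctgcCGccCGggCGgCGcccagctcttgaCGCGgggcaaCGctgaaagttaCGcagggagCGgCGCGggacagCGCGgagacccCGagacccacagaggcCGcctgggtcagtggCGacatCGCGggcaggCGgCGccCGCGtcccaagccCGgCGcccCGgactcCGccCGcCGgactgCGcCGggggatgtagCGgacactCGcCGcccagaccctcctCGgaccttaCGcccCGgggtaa
Kcnk5: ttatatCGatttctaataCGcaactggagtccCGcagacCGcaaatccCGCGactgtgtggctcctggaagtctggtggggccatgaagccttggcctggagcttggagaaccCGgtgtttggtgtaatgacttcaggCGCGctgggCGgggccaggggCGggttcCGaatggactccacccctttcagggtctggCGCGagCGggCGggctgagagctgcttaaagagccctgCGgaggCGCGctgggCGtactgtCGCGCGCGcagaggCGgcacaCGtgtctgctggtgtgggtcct
Kcnrg: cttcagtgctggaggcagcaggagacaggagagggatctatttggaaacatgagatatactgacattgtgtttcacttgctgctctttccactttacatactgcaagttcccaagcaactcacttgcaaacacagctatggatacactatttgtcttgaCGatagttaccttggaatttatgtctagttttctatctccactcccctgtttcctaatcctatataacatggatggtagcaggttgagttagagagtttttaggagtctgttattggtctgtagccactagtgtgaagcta
Kcnj13: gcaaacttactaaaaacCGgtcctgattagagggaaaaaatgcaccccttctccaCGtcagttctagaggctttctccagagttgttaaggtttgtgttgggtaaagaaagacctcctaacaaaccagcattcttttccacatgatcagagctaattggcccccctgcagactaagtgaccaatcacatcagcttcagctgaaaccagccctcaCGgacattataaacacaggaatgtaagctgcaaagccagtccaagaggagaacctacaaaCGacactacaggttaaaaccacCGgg

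CG content alone did not sort these starts, since Kcnk5 held more CG than Kcnc4. Over all 68 promoters the CG count ranged from 0 (Kcna10) to 49 (Kcng3) with a median of 9.5, against a median of 14 over the promoters of all 16456 genes. A count of 10 or more CG was found in 34 of the 68 (50%) and in 58.6% of all promoters; CG reads the same on both strands. Among the 68 genes the CG count and H3K27me3 at the start ranked together with a Spearman rho of 0.467, against -0.0916 over all 16456 genes. Both values describe genes within the same 2 libraries and are given without a test.

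In untreated cells the starts of potassium channel genes carried far more H3K27me3 than the typical gene. The median over the 68 starts was 6.80 and 6.82 times the library mean in the 2 libraries, against 0.471 and 0.469 over all 16456 starts. A level above 2 times the library mean was reached by 60 of the 68 starts (88.2%) and by 29.2% of all starts. The start base taken from the promoter table lay in one of the authors' replicated H3K27me3 peaks for 63 of 68 genes (92.6%), against 31.6% of all genes. The other peak sets held fewer of these starts, with 33 of 68 in H3K36me2 peaks (48.5%, all genes 52.3%), 17 in H3K27me2 peaks (25%, all genes 31.8%) and 7 in H3K27me1 peaks (10.3%, all genes 26.8%). These shares are a description, with no test.

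Among the Kv1 to Kv4 pore subunits all 12 genes with a start exceeded 2 times the library mean, with a median of 9.89. Kcnc4 had the highest start of all 68 genes, at 18.2 and 17.3 times the library mean in untreated libraries 1 and 2 (465 and 370 window reads). Kcna2 followed at 15.9 and 15.8. Kcna3, the channel of T lymphocytes, stood at 13.1 and 14.4, and Kcnc1, a pore subunit of fast-spiking neurons, at 13.0 and 13.1. The lowest of the family was Kcna10, at 3.14 and 3.61, which was still above the upper quartile of all genes (2.62). The ranges of Kcna3 and Kcnc1 overlapped, so their order does not exceed the spread between libraries, whereas both libraries of Kcnc4 lay above both of Kcna2.

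**Figure D1:**
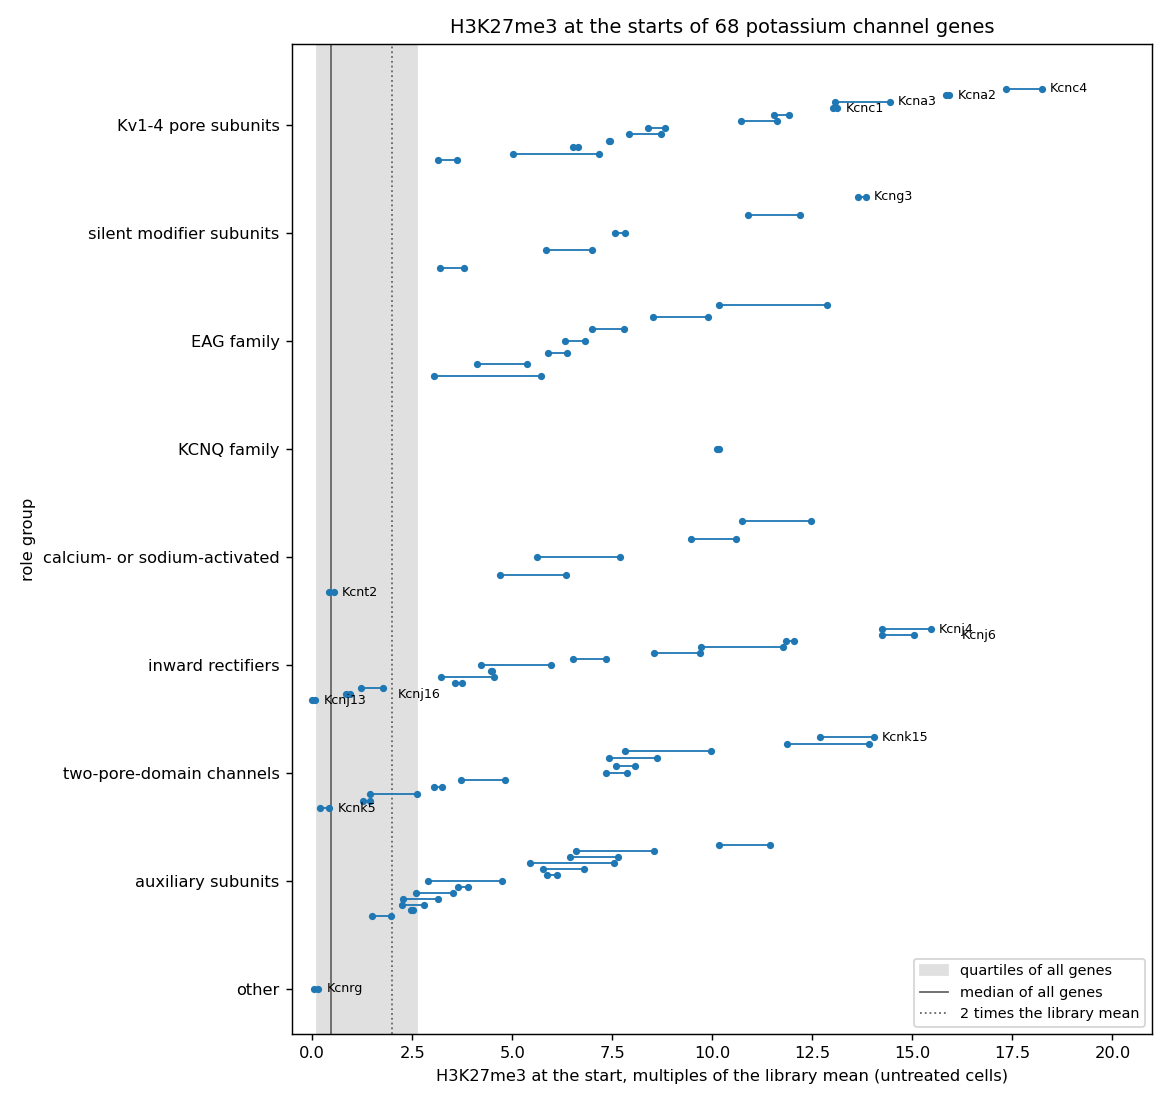
H3K27me3 at the start of each of 68 potassium channel genes in untreated cells, in multiples of the library mean (x axis), by role group (y axis); joined points are the 2 libraries of a gene, the band spans the quartiles of all 16456 genes, the solid line marks their median and the dotted line 2 times the library mean. Most genes lie to the right of the band in every role group but the one that holds only Kcnrg, and Kcnj13, Kcnrg and Kcnk5 are lowest.

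The silent modifier subunits all exceeded 2 times the library mean at the 5 measured starts, from 3.50 ± 0.436 (SD, n = 2) for Kcns3 to 13.7 ± 0.145 for Kcng3. The EAG family did so at 7 of 7 starts, from 4.39 ± 1.89 for Kcnh8 to 11.5 ± 1.90 for Kcnh5, a subunit of brain. Kcnh8 read 5.73 and 3.05 in its 2 libraries, one of the wider spreads among the named genes. Kcnq5, a subunit of the M-current that limits repetitive firing, was the single KCNQ gene with a start and stood at 10.2 and 10.1. Of the calcium- or sodium-activated channels 4 of 5 starts exceeded 2 times the mean, led by Kcnma1, the pore of the large-conductance calcium-activated channel, at 12.5 and 10.7. The exception was Kcnt2, a sodium-activated channel, at 0.549 and 0.422.

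Inward rectifiers spanned the widest range. Kcnj4 stood at 14.2 and 15.5 and Kcnj6, a G protein-gated rectifier, at 14.2 and 15.0, which overlap, while Kcnj13 had 2 and 0 window reads at its start, a level of 0.0784 and 0, where a count of 0 allows up to 3 reads. Of the 13 starts in the group 10 exceeded 2 times the mean. Among tandem-pore channels 9 of 11 did. Kcnk15 led them at 14.0 and 12.7, and Kcnk5 was lowest at 0.431 and 0.187. Among auxiliary subunits 12 of 13 did, from Kcnip1, a calcium sensor that binds Kv4 channels, at 11.5 and 10.2 down to Kcnab2, a cytoplasmic beta subunit, at 1.49 and 1.97. The median of this group, 3.82, was the lowest among the groups with more than 1 start.

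The 5 genes whose start lay outside every replicated H3K27me3 peak were Kcnj16 (0.892 ± 0.0690 times the library mean, SD, n = 2), Kcnt2 (0.485 ± 0.0900), Kcnk5 (0.309 ± 0.173), Kcnrg (0.102 ± 0.0778) and Kcnj13 (0.0392 ± 0.0555). Kcnj13 lies wholly within the span of Gigyf2, and 52.7% of Kcnrg is shared with Trim13, and reads over the shared sequence cannot be assigned to either partner. The fixed list of other voltage-gated cation channels, the sodium channel, calcium channel and Hcn pacemaker genes, gave 13 of 17 starts above 2 times the library mean (76.5%) with medians of 9.10 and 9.23.

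Over gene bodies the median H3K27me3 level was 3.54 and 3.33 times the library mean for the 90 genes, against 0.611 and 0.603 for the 18559 genes with a body value. H3K27me3 peaks covered the whole span of 33 of the 90 genes and none of the span of Kcnj13, Kcnrg and Kcnt2, with a median cover of 85.9%. H3K36me2 was also above the level of all genes over bodies (medians 1.96 and 1.86 against 1.48 and 1.38). H3K36me3 was below it (1.16 and 1.33 against 2.11 and 2.12), as was H3K27me1 (0.982 and 0.967 against 1.36 and 1.28). H3K27me2 lay close to it, at 1.35 and 1.40 against 1.34 and 1.30. Across the 90 bodies H3K36me2 ranked with H3K36me3 (Spearman rho 0.835) and H3K27me2 (0.826) more closely than with H3K27me3 (0.473), in libraries that share cells and gene lengths.

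Long and short genes had similar H3K27me3 medians at starts and unlike ones over bodies. The 22 genes of 100 kb or more, a line drawn after the values were seen, had a median of 7.39 times the library mean at their 19 measured starts but 0.919 over their bodies. The 68 shorter genes had 6.48 at 49 starts and 4.22 over their bodies. Over all genes the body medians in the 2 libraries were 0.812 and 0.831 for long genes and 0.571 and 0.557 for shorter ones, so the long potassium channel bodies lay near those of other long genes. Body H3K27me3 exceeded 2 times the mean in 6 of the 22 long genes and 58 of the 68 shorter ones. Peaks covered a median of 16.4% of the span of long genes and 97.3% of shorter ones. Spearman rho between length and H3K27me3 was -0.573 over bodies (n = 90) and 0.0551 at starts (n = 68).

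Kcnd2, a 514-kb gene for an A-type current of dendrites, had 11.2 times the library mean at its start and 0.486 and 0.678 over its body. Its body was also low in H3K36me2 (0.133 and 0.193) and H3K36me3 (0.125 and 0.105). Kcnh7 (491 kb), Kcnq5 (564 kb) and Kcnip4 (1136 kb) were alike, with body H3K27me3 of 0.392 ± 0.111, 0.760 ± 0.140 and 0.422 ± 0.112 (SD, n = 2) and body H3K36me3 between 0.0927 and 0.175. Long genes were not uniform. Kcnd3 (222 kb) and Kcnip1 (364 kb) had 4.69 and 3.76 times the library mean over their bodies, with 97.1% and 94.5% of their spans in H3K27me3 peaks.

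**Figure D2:**
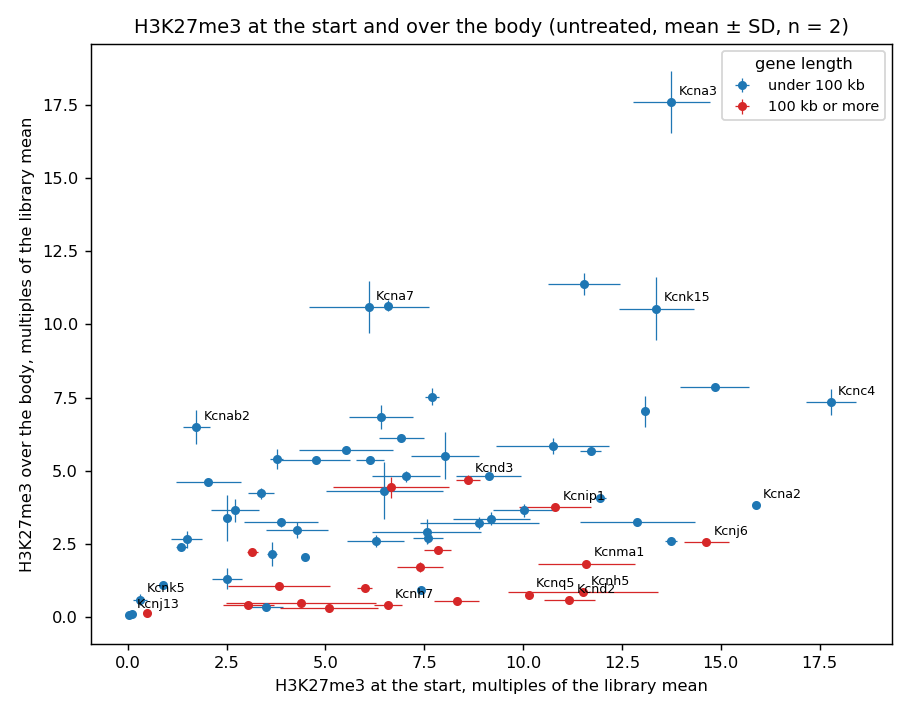
H3K27me3 over the body (y axis) against H3K27me3 at the start (x axis) in untreated cells, both in multiples of the library mean, for 68 potassium channel genes; points are means of 2 libraries, bars are SD, and colour marks genes of 100 kb or more. Long genes such as Kcnd2, Kcnq5 and Kcnh5 reach 10 or more at the start and stay below 1 over the body, while the short gene Kcna3 is high in both.

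Several of these genes are neighbours. On chromosome 3 Kcna3, Kcna2, Kcna10 and Kcnc4 lie between 107036162 and 107460287 (GRCm38.p6). Their starts stood at 13.7, 15.9, 3.37 and 17.8 times the library mean and their bodies at 17.6, 3.83, 4.23 and 7.35, so Kcna10 was the low start of the row although its whole span lay in H3K27me3 peaks. On chromosome 6 Kcna5, Kcna1 and Kcna6 lie between 126532551 and 126740834, all fully covered by peaks, with bodies at 10.6, 8.29 and 5.67. Kcnj2 and Kcnj16, neighbours on chromosome 11, differed in cover. Peaks held 68.8% of Kcnj2 and 5.79% of Kcnj16.

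High H3K36me3 over the body was rare among these genes. A level above 2 times the library mean was reached by 21 of 90 bodies (23.3%), against 51.9% of all genes. Kcnk5 was highest, at 5.14 and 6.34 times the library mean, with H3K27me3 over the body at 0.737 and 0.453. Kcnh3, an EAG family subunit of forebrain neurons, read 4.94 and 5.46. Kcnj14, an inward rectifier, read 4.71 and 4.76 and Kcnk7 2.80 and 2.79. The first 3 of these lay within or near the range of the pluripotency genes (4.74 to 8.15), whereas Kcnk7 lay below it, and 17.5% of its span is shared with Ehbp1l1. Kcnh3 also had H3K27me3 at 4.70 and 3.73 over its body in the same cell population. Spearman rho between H3K27me3 at the start and H3K36me3 over the body was -0.0515 among the 68 genes and -0.357 over 14804 genes.

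The quantitative libraries compare H3K27me3 on these genes after the EZH2 inhibitor and after DMSO. At the start of Kcnc4 the level on the spike-in scale, in scaled reads per window, was 1263 and 780 in DMSO libraries 1 and 2 and 2.06 and 2.62 in inhibitor libraries 1 and 2, 436-fold lower. At Kcna2 it was 1281 and 839 after DMSO and 3.15 and 3.22 after the inhibitor, 333-fold lower. At Kcnj4 it was 1085 and 807 after DMSO and 1.94 and 3.02 after the inhibitor, 382-fold lower. In all 3 genes both inhibitor libraries lay far below both DMSO libraries. The median over the 68 starts went from 469.5 and 294.9 to 0.484 and 0.346.

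At starts H3K27me3 fell in 67 of 68 genes (limma on log2 of scaled reads per window plus 1, Benjamini-Hochberg adjusted p under 0.05), against 92.5% of 15978 genes tested. The exception was Kcnj13, with 0 and 3 window reads after DMSO and 0 in both inhibitor libraries. The median log2 change was -7.92, against -4.75 over all genes tested, on a scale where adding 1 holds back the change of genes with low levels. Over bodies H3K27me3 fell in 90 of 90 genes, against 98.6% of 18292 genes, with a median log2 change of -6.99 against -4.77. A share near that of all genes says nothing particular about potassium channel genes. Folds on the linear scale, taken where the 2 inhibitor libraries together held more than 3 reads, ran from 38.4 for Kcnk5 to 3929 for Kcnj9 at 60 starts (median 629) and from 48.2 for Kcnrg to 2116 for Kcnj9 over 88 bodies (median 742). These extremes rest on few reads after the inhibitor, 5 and 2 at the start of Kcnk5, 1 and 3 at that of Kcnj9 and 6 and 2 over the body of Kcnrg. Counts at starts are sums over 2 overlapping windows, so a read can enter more than once.

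**Figure D3:**
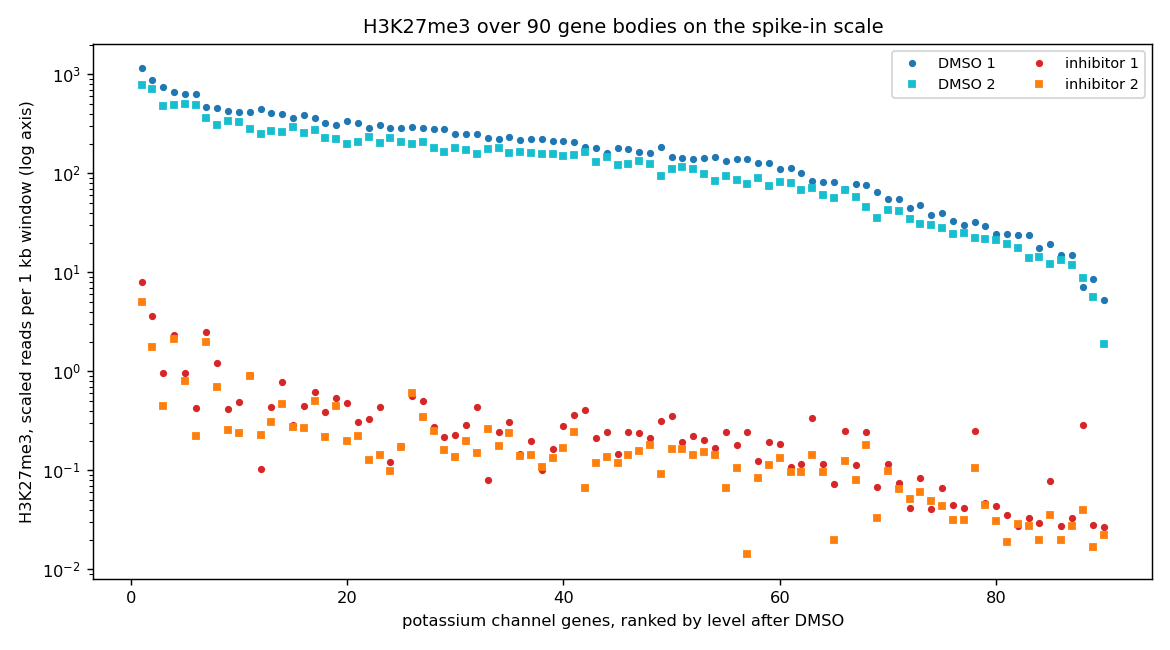
H3K27me3 over the bodies of 90 potassium channel genes in scaled reads per 1 kb window on the spike-in scale (y axis, log), with genes ranked by their mean level after DMSO (x axis); points are single libraries. All inhibitor points lie below all DMSO points of the same gene, and the median falls from 179.5 and 128.2 to 0.224 and 0.140.

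These folds depend on the step of each of the 4 tracks, which was read from the values and is assumed to carry the spike-in correction. With library totals in its place, which ask only where the remaining reads lie, limma called 0 starts of the 68 changed (0% of all genes in either direction). At an unadjusted p under 0.05 there were 11 lower and 4 higher, against 1735 and 3001 of all 15978 genes. Limma-voom, run on the spike-in scale, called 68 of 68 starts lower, against 15964 of all 15978. It adds the same small count to every library before the step is applied. The steps are 5.943 and 3.37 after DMSO and 0.242 and 0.099 after the inhibitor, so starts without reads would also come out lower. That count therefore cannot show a fall at starts with few reads, Kcnj13 among them. Over bodies, limma on library totals called 27 of the 90 genes lower and 4 higher, against 10.2% and 25.1% of all genes. The inhibitor libraries held 0 to 87 window reads at a start of these genes and 1 to 571 over a body. Median centring called 62 starts lower and 2 higher, against 39.2% and 27.7% of all genes, and 74 bodies lower and 10 higher, against 43.2% and 41.7%. Centring was applied on the spike-in scale after 1 was added. Inhibitor medians of these genes there were 0.484 and 0.3465 at starts and 0.224 and 0.140 over bodies. With values below the 1 added, the centred change mostly follows the level after DMSO and cannot show where the remaining reads lie.

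Set against the library mean, the remaining H3K27me3 was a smaller multiple over most potassium channel bodies. Both inhibitor libraries lay below both DMSO libraries in 60 of 90 bodies (28.4% of all genes) and above both in 16 (49.7% of all genes), with a median log2 change of -0.46. The median over these bodies went from 3.69 and 3.59 after DMSO to 2.46 and 2.10 after the inhibitor. Over all genes it went from 0.708 and 0.682 to 1.43 and 1.35. The untreated level and the relative change over the 90 bodies ranked with a Spearman rho of -0.293. On library totals limma called 14 of 26 bodies of the other voltage-gated cation channels lower and 1 higher. The shift was thus not particular to potassium channel genes. Kcnj5, a rectifier of heart and adrenal cells, went from 4.36 and 4.40 times the library mean after DMSO to 1.80 and 2.01 after the inhibitor, a log2 change of -1.20. Kcnj10, the rectifier of glia, went from 5.09 and 5.07 to 2.49 and 2.04. Kcnh6, Kcnj4 and Kcnn1 had log2 changes of -1.16, -1.12 and -1.12. On library totals limma called Kcnj5, Kcnj10, Kcnj4 and Kcnn1 lower but not Kcnh6 (adjusted p 0.0603). These 5 were the lowest among the 69 bodies with at least 10 reads in each inhibitor library, a minimum that favours genes with more reads left.

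A few genes went the other way. Kcna3, whose body value rests on a single window, went from 23.7 and 21.7 times the library mean after DMSO to 87.6 and 75.6 after the inhibitor (33 and 51 reads), a log2 change of 1.85. Kcna1, the Kv1 subunit of axons, went from 9.71 and 10.1 to 27.5 and 29.5 over 8 windows (83 and 159 reads), a log2 change of 1.53. Kcns1, a silent modifier of sensory neurons, went from 13.7 and 13.6 to 25.7 and 31.6, a log2 change of 1.07. In each of the 3 the inhibitor libraries lay above the DMSO libraries, although on the spike-in scale the same genes were 148-fold, 186-fold and 259-fold lower.

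Kcnk5, the gene with the most H3K36me3, started low. It went from 0.661 and 0.617 to 2.72 and 1.59 times the library mean, a log2 change of 1.75. The genes limma called higher on library totals included Kcna1, Kcna3 and Kcns1 (log2 changes of 1.31, 1.73 and 0.93, adjusted p of 0.0196, 0.0196 and 0.0215) on a scale that sets the library totals equal. Kcnk5 was not called there. Its log2 change was 0.54, in a fit where adding 1 holds back the change of genes with low levels.

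**Figure D4:**
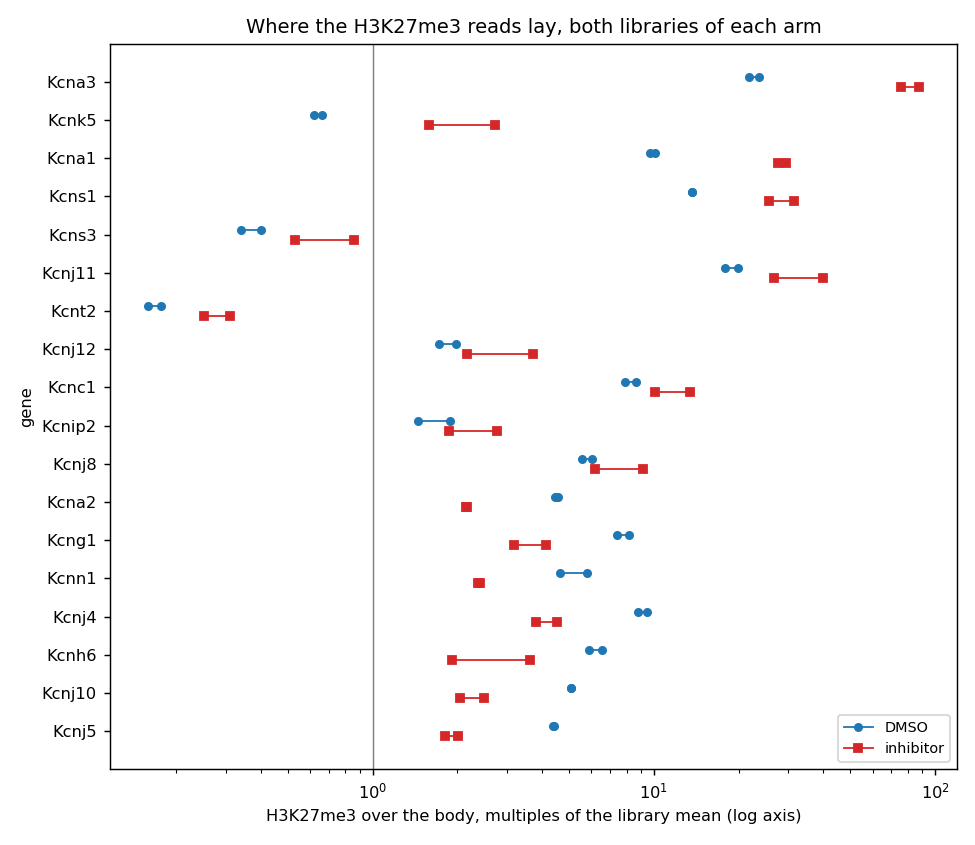
H3K27me3 over the body in multiples of the library mean (x axis, log) after DMSO (circles) and after the inhibitor (squares), both libraries of each arm joined, for genes with the lowest and the highest relative changes among the 69 bodies with at least 10 reads in each inhibitor library. Kcna3, Kcna1 and Kcns1 lie higher after the inhibitor and Kcnj5, Kcnj10 and Kcnj4 lower, with no overlap between the arms.

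At starts only 16 genes had at least 10 window reads in each inhibitor library, so the same comparison covers the genes with the most reads left. Kcnk15 went from 18.6 and 19.3 to 45.1 and 64.5 times the library mean, a log2 change of 1.53. Kcna6 and Kcnc1 followed with log2 changes of 1.26 and 1.06, and the arms of these 3 did not overlap. Kcna2 and Kcnj4 had 0.73 and 0.57. The 5 lowest of the 16 were Kcnn1 (-0.43), Kcnj5 (-0.23), Kcng3 (-0.19), Kcnh5 (-0.18) and Kcns1 (-0.0062), of which only Kcnn1 had arms that did not overlap. Over all 68 starts both inhibitor libraries lay below both DMSO libraries in 29 (28.5% of all genes) and above in 9 (30.9%).

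H3K36me2 was measured in the same treatment. On the spike-in scale limma called none of the 68 starts, 0 lower and 0 higher, against 0.0805% lower and 0.768% higher over all genes (at an unadjusted p under 0.05, 0 lower and 1 higher, against 71 and 448 of all 16145 genes; limma-voom 0 called, and unadjusted 0 and 2 against 7 and 223). It called 0 of the 90 bodies, against 0.0218% lower and 0.169% higher (at an unadjusted p under 0.05, 0 lower and 2 higher, against 16 and 268 of all 18358 genes; limma-voom 0 called, and unadjusted 0 and 3 against 2 and 245). The 2 libraries of an arm differed as a whole, with body medians of 611 and 427 scaled reads per window in DMSO libraries 1 and 2 and 788 and 470 in inhibitor libraries 1 and 2, and the SE of every log2 change was 0.50 over bodies and 0.63 at starts. Log2 changes of the size seen in these genes, up to 1.12 over bodies and 1.34 at starts, had adjusted p of about 1.0 and were not detectable in this test. This fit takes no account of replicate numbers, and one with a replicate block, given in the closing section, called some of these bodies higher. The median log2 change over bodies was 0.19. Leaving out 1 library gave 0.49 (DMSO library 1), -0.08 (DMSO library 2), -0.17 (inhibitor library 1) and 0.57 (inhibitor library 2). At starts the median was 0.06, and 0.33, -0.26, -0.22 and 0.35 without the same libraries, so its direction was not stable.

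The highest values over bodies belonged to genes that carried little of the mark. Kcnd2 had 63.1 and 41.3 scaled reads per window after DMSO and 158 and 78.8 after the inhibitor, a log2 change of 1.12 ± 0.50 (SE; adjusted p 1.0, limma). Kcnh7, an EAG family gene, had 52.2 and 32.7, then 114 and 63.5, a log2 change of 1.02. Kcna4, an A-type Kv1 subunit, had 78.8 and 54.3, then 182 and 86.6, a log2 change of 0.93. Without inhibitor library 1 the 3 log2 changes were 0.62, 0.61 and 0.40. In these 3 genes the inhibitor arm lay wholly above the DMSO arm, as in 7 of 90 bodies (6.47% of all genes). The lowest values were -0.22 for Kcnrg, -0.19 for Kcns2 and -0.16 for Kcnf1, whose arms overlapped. Without inhibitor library 2 these turned to 0.42, 0.23 and 0.15. At starts the highest were 1.34 for Kcnip4, 1.06 for Kcna10 and 0.95 for Kcnk13, and the lowest -0.78 for Kcnj8, -0.63 for Kcnh4 and -0.57 for Kcnc1. Without inhibitor library 2 the last 3 were 0.077, -0.081 and -0.26, so Kcnj8 changed sign, and without inhibitor library 1 Kcna10 and Kcnk13 stood at 0.64 and 0.50.

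Division by the library mean removed most of the difference between libraries of an arm. Kcnd2 stood at 0.195 and 0.194 times the library mean after DMSO and 0.392 and 0.348 after the inhibitor, Kcnh7 at 0.161 and 0.153, then 0.282 and 0.280, and Kcnq5 at 0.325 and 0.330, then 0.542 and 0.508. These remain levels well under the library mean. By contrast Kcns2 went from 1.87 and 1.88 to 1.43 and 1.42. On this scale the inhibitor arm lay wholly above the DMSO arm in 34 of 90 bodies (15.4% of all genes). It lay wholly below in 30 (37.8%). Limma on library totals called 0 of the 90 bodies and 0% of all 18358 genes in either direction. At an unadjusted p under 0.05 there were 13 lower and 13 higher among the 90, and 2507 lower and 898 higher among all genes. That fit adds 1 before log2 is taken, which holds back the change of genes with low levels. Its log2 changes over the 90 bodies ran only from -0.19 to 0.16. The 0 calls therefore cannot decide whether the shifts relative to the library mean exceed the spread between libraries.

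Among the 22 genes of 100 kb or more, the inhibitor arm lay wholly above in 17 and wholly below in 0. Over all 2312 genes of that length the shares were 33.3% and 37.3%. Among the 68 shorter genes the counts were 17 above and 30 below, against 12.6% and 37.4% of shorter genes. The 5 long genes outside the 17 were Kcnh1, Kcnj6, Kcnmb2, Kcnn3 and Kcnt2. The long potassium channel genes also started lower in H3K36me2, with untreated medians of 0.635 and 0.777 times the library mean against 1.29 and 1.31 over all genes of that length. Across the 90 bodies the untreated H3K36me2 level, measured in separate libraries, ranked against the relative change with a Spearman rho of -0.72, and across 18314 genes with -0.441, given as a description. The part of starting level, length and the fall of H3K27me3 in this difference was not tested.

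**Figure D5:**
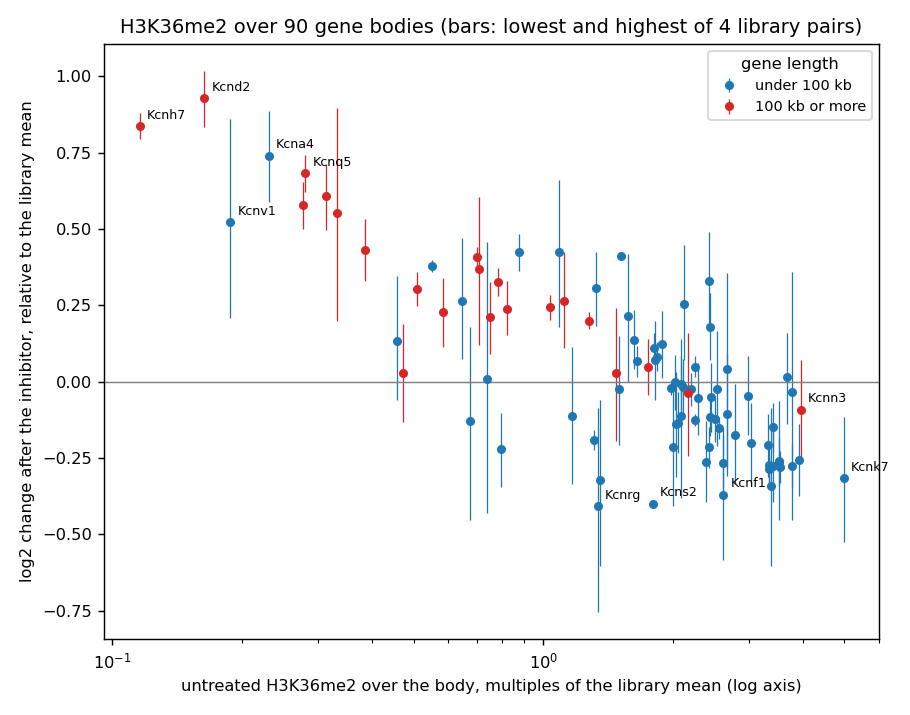
Log2 change of H3K36me2 over the body after the inhibitor, relative to the library mean (y axis), against the untreated level in multiples of the library mean (x axis, log) for 90 potassium channel genes; bars span the lowest and highest of the 4 pairs of an inhibitor and a DMSO library, and colour marks genes of 100 kb or more. Kcnh7, Kcnd2 and Kcna4 stand at the upper left and Kcnk7 at the lower right.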

How the data were processed

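Groups follow the labels. Per the submitters' processing notes, reads were handled with Trim Galore 0.4.2, Bowtie2 2.2.6.2 and SICER, with the builds mm10 and dm3; parameters are not given in the sources used here. The deposited tracks hold log2 values in 1 kb windows every 500 bp. From the values, adding 1 to a whole number of reads multiplied by a step fixed for the library, then taking log2, gives every value (100% of windows at a tolerance of 0.02); the step is a reads-per-million factor in untreated libraries and is assumed to be a spike-in factor in quantitative ones (5.943, 3.37, 0.242 and 0.099 for H3K27me3 in DMSO libraries 1 and 2 and inhibitor libraries 1 and 2). No input was subtracted here. Peak lists are the authors' own, with a deposited score of unstated scale, used only to rank peaks. mm10 and GRCm38.p6 share chromosome coordinates.

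Values were returned to the linear scale. The most upstream start in the promoter table was used (15 genes list several), with the mean of the 2 windows lying within 1 kb of it. These 2 windows overlap by 500 bp, so a read in the shared part counts in both, also in the read minimums used at starts. The body is all non-overlapping windows centred in the gene and over 1 kb from a listed start. Where no start is listed (22 of these genes), windows centred within 1 kb of either gene end were left out instead. An internal start may thus lie in such a body. Some listed starts lie well inside the gene, as in Kcna2, Kcnj4 and Kcnip4. The upstream end of such a gene was counted in its body and not at its start. Within each mark, inhibitor and DMSO arms (2 libraries each) were tested with limma 3.58.1 (R 4.3.3) on log2(scaled reads per window + 1) over all genes with a read, called at an adjusted p of 0.05. The scripts were tested on simulated data, for H3K27me3 on library totals only, so its spike-in scale was not covered by that check. Single-library counts carry counting error only. Genes named are the highest and lowest start per role group, the 8 highest starts, the 5 highest H3K36me3 bodies, the 3 highest and lowest H3K36me2 changes and the 5 largest and smallest relative H3K27me3 changes, plus a few chosen after values were seen (long genes, neighbours, genes outside peaks, extremes). Some genes that these rules select are not reported here. The members and lists were chosen with earlier results of these data known. Alternatives tried are in the closing section.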

Additional observations from a re-analysis of the deposited data

How the results depend on the processing

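Of 107 recalculated main results 88 were classed as the same. For counts of members called or in peaks this meant staying within a fixed ratio of the main count. For H3K27me3 only lower calls were counted, so calls in the opposite direction did not enter. For untreated medians it meant moving by no more than the SD of the 2 library medians. Leaving out 1 of the 2 libraries cannot exceed that, so those recalculations were no check. For single named genes 221 of 237 kept their direction and side of the threshold. Scaled to library totals, the members called lower in H3K27me3 went from 67 to 0 at starts and from 90 to 27 over bodies, and the log2 change over bodies turned positive in Kcns1 (0.93), Kcna1 (1.31), Kcnk5 (0.54) and Kcna3 (1.73); this scale sets the library totals equal. Median centring gave 0.24 for Kcnk5. The median over all genes at starts was -4.75 on the spike-in scale, 0.14 on library totals and 0.02 after centring. The labels do not say whether equal replicate numbers mark a shared batch, so the numbers were not taken as pairs. Deviations from the arm means correlated between same-numbered libraries at 0.0174 and 0.0885 at starts and 0.0818 and 0.566 over bodies (Pearson r across genes, H3K27me3 and H3K36me2). With a replicate block, 15 of the 90 bodies were called higher in H3K36me2 in place of 0. Over all genes 1455 (7.93%) were called higher and 45 (0.245%) lower, in place of 31 and 4. Kcnd2, Kcnh7 and Kcna4 were among the 15, and no other member count changed. Leaving out 1 library at a time gave 66 to 68 starts and 90 bodies lower in H3K27me3 (90.8% to 95.8% and 98.8% to 99.5% of all genes) and 0 calls in H3K36me2; a lone library was assumed to vary like the other arm. It moved the log2 change in H3K36me2 between -1.63 and 0.077 for Kcnj8 at its start, and over bodies between -0.85 and 0.42 for Kcnrg (0.20 without DMSO library 1), -0.62 and 0.23 for Kcns2 (0.10) -0.48 and 0.15 for Kcnf1 (0.02), 0.62 and 1.61 for Kcnd2, 0.61 and 1.44 for Kcnh7 and 0.40 and 1.46 for Kcna4. At starts it lay between 1.17 and 1.52 for Kcnip4, 0.64 and 1.48 for Kcna10, 0.46 and 1.45 for Kcnk13, -1.17 and -0.081 for Kcnh4 and -0.98 and -0.15 for Kcnc1. Over all genes the H3K36me2 counts were unstable, from 0 to 55 lower and 0 to 209 higher at starts (13 and 124 as reported) and from 0 to 45 lower and 0 to 1455 higher over bodies. Untreated medians moved beyond the spread between libraries as follows. A mean over members gave 7.10 (H3K27me3), 1.10 (H3K27me2), 1.53 (H3K36me2) and 1.27 (H3K36me3) at starts and 3.99 (H3K27me3), 1.03 (H3K27me1) and 1.46 (H3K36me3) over bodies. Windows of 2.5 kb each side gave 6.30 (H3K27me3) and 1.44 (H3K36me2), the whole span 3.62 (H3K27me3) and 1.33 (H3K27me2), and DMSO libraries 8.95 and 3.64 (H3K27me3 at starts and bodies) and 1.39 (H3K36me2 at starts). The last listed start, an alternative chosen after seeing the data, gave 6.497 (H3K27me3) and 0.967 (H3K27me2). The cause of these shifts was not tested. Low read numbers after the inhibitor limit what can be said of single H3K27me3 starts.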
